A study of Mus musculus with 2 samples.

Results

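The genes described here encode 36 proteins of the synapse, chosen by name from the genes known to build the presynaptic release machinery, the adhesion across the cleft and the postsynaptic scaffold. They were found in the gene tables of both libraries through the GENCODE M21 gene that carries each symbol, and all 36 were matched among 55536 mouse gene IDs. By role, 23 belong to vesicle release, 5 to trans-synaptic adhesion and 8 to the postsynaptic scaffold. The rule uses no measured value, though the members were chosen with earlier results of these data known.

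The study sequenced polyadenylated RNA from mouse neural tube of strain B6NCrl at embryonic age 12.5 days. It holds 1 group of 2 libraries, each from its own pool of healthy male and female embryos, with 120 embryos in replicate 1 and 88 in replicate 2. No allele, treatment or control group is given, and each pool averages all cells of the dissected tissue, so fewer cells of a type and less RNA per cell cannot be told apart. The questions open to these data are therefore how strongly each synapse gene was expressed, which member of each family led, which transcripts carried it, and whether the libraries differed.

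At a synapse, vesicles filled with transmitter are docked at the active zone, and the SNARE proteins of vesicle and plasma membrane zip together to fuse them when calcium binds a synaptotagmin. Neurexins on the presynaptic side bind neuroligins on the postsynaptic side, and scaffold proteins of the DLG (MAGUK), SHANK and HOMER families hold receptors beneath the neuroligins. In the embryonic spinal cord and hindbrain many of these genes are transcribed as soon as neurons leave the cell cycle, and several SNARE and adhesion proteins also serve axon growth.

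The libraries held 33529531 estimated counts in the first replicate and 35461403 in the second. A member had between 220 and 12408 reads in a library, and the posterior standard deviation of its deposited count was at most 2.07% of that count. The tissue label was checked against fixed marker lists. All 12 neuron markers and 9 of 10 neural progenitor markers had at least 10 TPM in both libraries. TPM is a level scaled per transcript length and per library. The 8 forebrain markers had a median of 0.0775 TPM, with Nkx2-1 and Six6 listed at 0. Of these 8, 2 had at least 1 TPM in both libraries, namely Lhx2 (5.38 and 5.89 TPM) and Dlx2. Emx2 had 0.42 TPM in replicate 1 and 1.69 in replicate 2. Markers of other tissues were present as well. The 8 erythroid markers had a median of 717 TPM, the 8 Schwann cell and neural crest markers a median of 22.0 TPM, the 8 macrophage markers a median of 12.7 TPM, the 12 skeletal muscle markers a median of 19.4 TPM, and the 9 sensory ganglion markers a median of 5.98 TPM.

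Several results below turn on which transcript model of a gene carried the reads, and the coding segments that separate those models are therefore shown first. Snap25, on chromosome 2, has a pair of adjacent coding exons of 118 bases of which a transcript uses only 1. The upstream copy (GRCm38, chr2:136769743-136769860, plus strand) gives SNAP25a and the downstream copy (chr2:136770057-136770174) gives SNAP25b. They are identical at 87 positions and differ at 31, and capitals mark the differing bases.
Snap25 upstream exon: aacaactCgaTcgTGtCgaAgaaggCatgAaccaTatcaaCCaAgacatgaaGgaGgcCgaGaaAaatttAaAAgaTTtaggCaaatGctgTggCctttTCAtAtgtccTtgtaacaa
Snap25 downstream exon: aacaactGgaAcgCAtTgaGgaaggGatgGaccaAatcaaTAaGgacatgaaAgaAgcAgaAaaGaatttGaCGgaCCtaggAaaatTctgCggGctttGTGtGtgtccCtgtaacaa

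Synapsin 1, the neuroligins and the neurexins are likewise told apart by short coding segments, printed without capitals from the GENCODE M21 transcripts. The Syn1 segment of 38 bases (chrX:20861572-20861609, minus strand) is coding in synapsin Ia and missing from synapsin Ib, whose C terminus differs. Nlgn1 has an exon of 60 bases at splice site A (chr3:25920178-25920237, minus strand) and an insert of 27 bases at splice site B (chr3:25439865-25439891), both of which tune its binding to neurexins. The Nrxn3 exon of 90 bases at splice site 4 (chr12:90199147-90199236, plus strand) is the best known switch of neurexin partner choice.
Syn1 segment: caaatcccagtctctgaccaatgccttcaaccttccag
Nlgn1 splice site A: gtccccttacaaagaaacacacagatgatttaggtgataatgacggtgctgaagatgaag
Nlgn1 splice site B: gtaaccgttggagcaattcaaccaaag
Nrxn3 splice site 4: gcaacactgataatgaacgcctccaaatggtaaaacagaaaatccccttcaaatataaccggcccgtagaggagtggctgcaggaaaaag

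All 36 genes were expressed at 1 TPM or more in both libraries, against 61.1% of 21938 nuclear protein-coding genes. Of the 36, 23 reached 10 TPM in both libraries and 4 reached 50 TPM. Mean levels ran from 2.85 TPM for Shank2 to 220.1 TPM for Snap47, which stood at the 9.73 and 95.2 percentiles of the protein-coding genes expressed at 1 TPM or more. The median of the 36 was 17.0 ± 1.09 TPM (SD over libraries, n = 2), below the 21.6 ± 0.481 TPM of those 13396 expressed genes. The members spread across most of the range of the transcriptome. Since they were chosen with earlier results of these data known, the share that was expressed is a description of the list only. In the order of mean levels, 26 of the 35 neighbouring pairs were not separated by more than 2 SD of their log2 ratio over the libraries. At the top, Snap47, Syt11 and Vamp2 were each separated from the gene below.

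**Figure D1:**
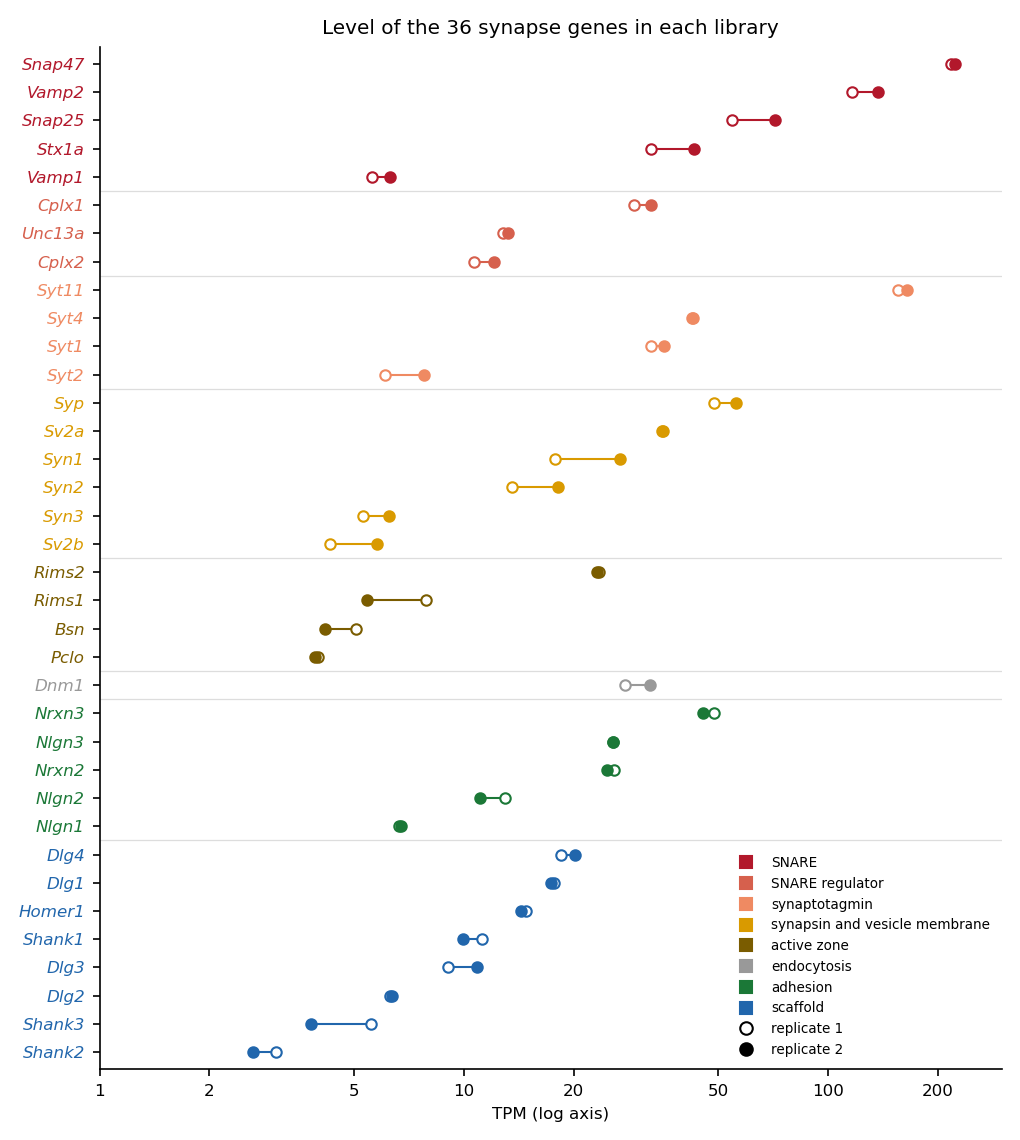
TPM of each of the 36 genes on a log axis, grouped by role, with an open circle for replicate 1 and a filled circle for replicate 2. The SNARE gene Snap47 and the synaptotagmin Syt11 lie furthest right at 220.1 and 160.2 TPM, and all scaffold genes lie at or below 20.14 TPM.

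Among the SNARE genes, 4 of 5 were above 30 TPM in both libraries. Snap47, a SNAP25 relative found on intracellular membranes, had 217 TPM in replicate 1 and 223 in replicate 2. Vamp2, the vesicle SNARE synaptobrevin 2, had 116 and 137 TPM. Snap25, the plasma membrane SNARE of neuronal exocytosis, had 54.6 and 71.6 TPM. For these 3 genes replicate 2 was the higher library. Stx1a, the syntaxin that pairs with SNAP25, had 32.6 and 42.95 TPM, and Vamp1, the synaptobrevin that serves motor and hindbrain terminals in the adult, had 5.61 and 6.29 TPM.

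Within the SNARE families the order was the same in both libraries. Vamp2 exceeded Vamp1 by 4.41 ± 0.05 on the log2 scale (mean ± SD of the TPM ratio, n = 2), the widest gap between paired members. Snap25 stood 1.82 ± 0.25 below Snap47 on that scale and 1.20 ± 0.24 above Snap23, its counterpart in non-neuronal secretion. Against the neuronal tubulin Tubb3, which marks all young neurons, Snap25 was lower by 15.5-fold, Syp by 18.5-fold and Syt1 by 28.4-fold. A pair was counted as separated where the mean exceeded 2 SD and had 1 sign in both libraries, which 28 of the 30 pairs met. With 2 libraries a sign-flip test cannot go below 0.5, so no p is given.

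The regulators of SNARE assembly were at a middle level. Cplx1, a complexin that clamps and then promotes fusion, had 29.2 TPM in replicate 1 and 32.6 TPM in replicate 2. Cplx2, its forebrain-rich paralog, had 10.7 and 12.1 TPM, lower than Cplx1 by 1.44 ± 0.02 on the log2 scale. Unc13a, which encodes the priming factor MUNC13-1, had 12.8 and 13.2 TPM. Replicate 2 was again the higher library for all 3.

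The synaptotagmins were led by a member that does not bind calcium. Syt11 had 156 and 165 TPM, Syt4 had 42.5 and 42.2 TPM, and Syt1, the fast calcium sensor of most central synapses, had 32.6 and 35.5 TPM. Syt11 exceeded Syt1 by 2.24 ± 0.03 on the log2 scale, and Syt4 exceeded it by 0.32 ± 0.09. Syt2, the fast sensor of many hindbrain and spinal terminals in the adult, had 6.07 and 7.75 TPM and lay 2.31 ± 0.16 below Syt1. The adult sensors were thus present, at levels under those of Syt11 and Syt4.

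The vesicle proteins covered a wide range. Syp, the membrane protein synaptophysin, had 48.7 and 56.0 TPM, and Sv2a, the vesicle glycoprotein found at nearly all synapses, had 35.10 and 35.03 TPM. Syn1, which tethers vesicles to actin and to each other, had 17.8 TPM in replicate 1 and 26.9 in replicate 2, the widest gap between the libraries of any member in reads. Syn2 had 13.6 and 18.2 TPM, Syn3 5.30 and 6.25 TPM and Sv2b 4.29 and 5.76 TPM. Sv2a exceeded Sv2b by 2.82 ± 0.30 on the log2 scale, and Syn1 exceeded Syn2 by 0.48 ± 0.13 and Syn3 by 1.92 ± 0.26. Dnm1, the neuronal dynamin that pinches off endocytic vesicles, had 27.7 and 32.4 TPM, 1.02 ± 0.08 below the ubiquitous Dnm2.

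The active zone genes, other than Rims2, were among the lowest. Rims2, a RIM protein that recruits calcium channels to release sites, had 23.5 and 23.2 TPM. Its paralog Rims1 had 7.86 TPM in replicate 1 and 5.43 in replicate 2, and was lower by 1.84 ± 0.36 on the log2 scale. Bsn and Pclo encode bassoon and piccolo, the giant scaffolds of the active zone. Bsn had 5.07 and 4.16 TPM and Pclo 3.99 and 3.91 TPM, a difference not beyond the spread (0.22 ± 0.18 on the log2 scale). For both RIM genes and for Bsn and Pclo, replicate 1 was the higher library.

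Of the adhesion genes, Nrxn3 was the highest with 48.5 and 45.3 TPM, and Nrxn2 had 25.8 and 24.6 TPM, lower by 0.90 ± 0.02 on the log2 scale. Nlgn3, a neuroligin of both excitatory and inhibitory synapses, had 25.7 and 25.6 TPM. Nlgn2, which sits at inhibitory synapses, had 13.0 and 11.1 TPM, and Nlgn1, of excitatory synapses, had 6.65 and 6.72 TPM. The order Nlgn3, Nlgn2, Nlgn1 held in both libraries, with gaps of 1.10 ± 0.16 and 0.84 ± 0.17 on the log2 scale.

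The scaffold genes were lower by median than the vesicle and adhesion genes, though above the active zone genes taken alone. Dlg4, which encodes PSD-95, had 18.5 and 20.1 TPM, and Dlg1, which encodes SAP97 and also serves epithelial cells, had 17.7 and 17.4 TPM. Their difference was not beyond the spread (0.14 ± 0.10 on the log2 scale). Dlg3 (SAP102), the MAGUK known from young synapses, had 9.06 and 10.8 TPM, and Dlg2 (PSD-93) had 6.26 and 6.37 TPM. Homer1, which links glutamate receptors to SHANK proteins, had 14.8 and 14.4 TPM. Shank1 had 11.3 and 9.95 TPM, Shank3 5.57 and 3.80 TPM and Shank2 3.06 and 2.64 TPM. Shank1 exceeded Shank2 by 1.90 ± 0.03 on the log2 scale, and Dlg4 exceeded Nlgn1 by 1.53 ± 0.08. Counted over full-length coding transcripts alone, a scale chosen after the data were seen, Dlg4 was below Nlgn1 (-0.44 on the log2 scale).

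Set side by side, the vesicle and adhesion groups had medians that did not differ beyond their spread, and the scaffold group had a lower one. The median of the 23 vesicle genes was 23.5 TPM in replicate 1 and 26.9 in replicate 2. That of the 5 adhesion genes was 25.7 and 24.6 TPM, and that of the 8 scaffold genes 10.2 and 10.4 TPM. The vesicle median exceeded the scaffold median by 1.29 ± 0.11 on the log2 scale and the adhesion median by an amount of either sign, -0.13 in replicate 1 and 0.13 in replicate 2. The adhesion median exceeded the scaffold median by 1.29 ± 0.07. Within the vesicle group the SNARE genes had a median of 63.1 TPM, the synaptotagmins 38.2, the synapsins and vesicle membrane genes 19.1, the regulators 13.0 and the active zone genes 5.63. With only transcripts that hold a full-length coding sequence, vesicle exceeded adhesion by 1.12 and scaffold by 2.64 on the log2 scale.

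The transcript tables give each transcript's share of its gene's TPM. A coding sequence was called full length where the model was complete and held at least 80% of the coding bases of the gene's APPRIS principal transcript, the one GENCODE marks as the main product. In 26 of the 36 genes the leading transcript was full length, among them 20 of 23 vesicle genes, 3 of 5 adhesion genes and 3 of 8 scaffold genes. The leading transcript was the same in both libraries for 31 genes. The other 5 were Syn1, Syn3, Sv2b, Dnm1 and Dlg1, where a different transcript led in each library.

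**Figure D2:**
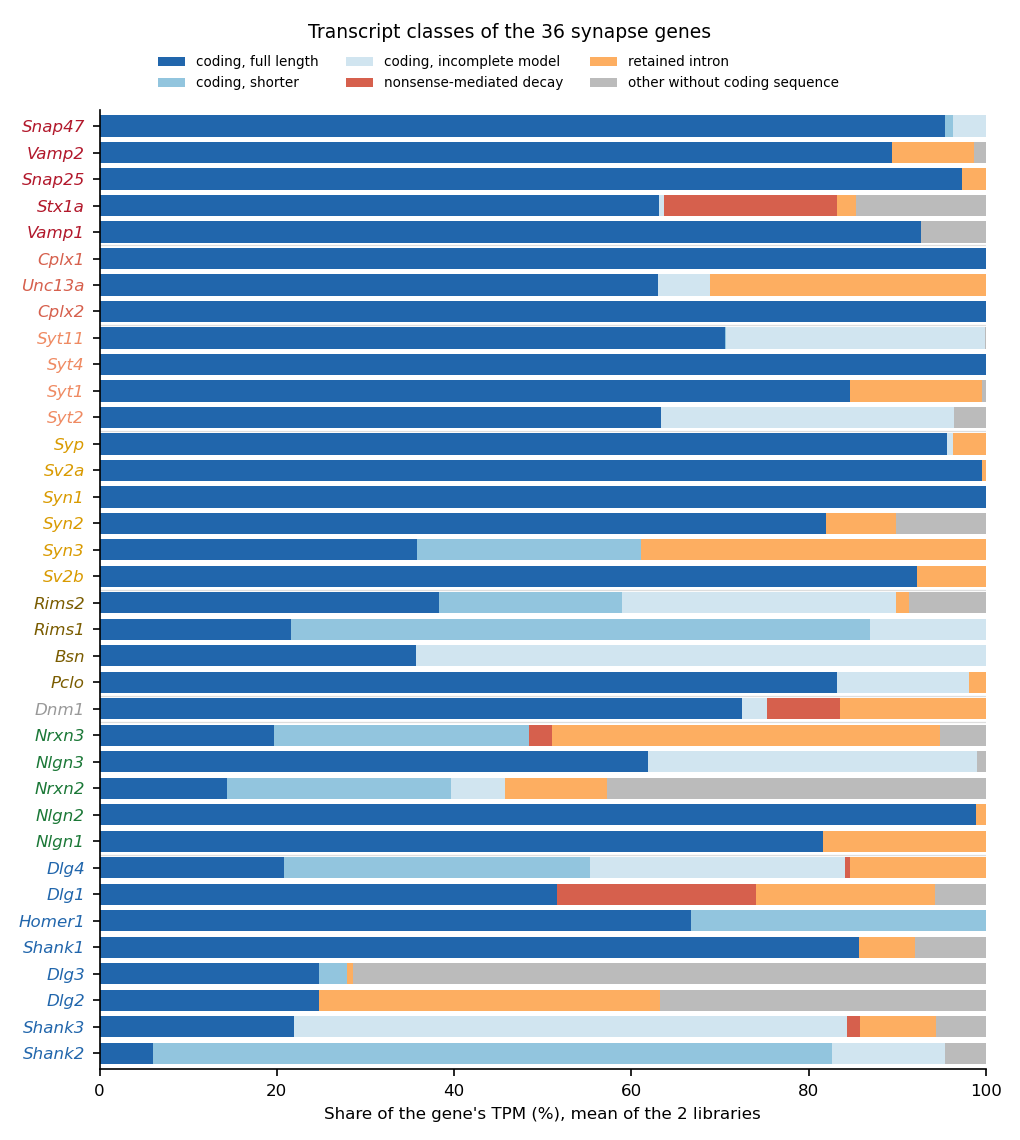
Share of each gene's TPM carried by 6 classes of transcript, as stacked bars giving the mean of the 2 libraries, with genes in the same order as in the plot of levels. Full-length coding transcripts fill most bars of the vesicle genes, and retained-intron, incomplete or non-coding models fill more of the bars of Nrxn2, Nrxn3, Dlg2, Dlg3, Dlg4 and Shank3.

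Full-length coding transcripts carried a median of 86.8% of the TPM of the vesicle genes, 61.9% of that of the adhesion genes and 26.2% of that of the scaffold genes. For 13348 expressed protein-coding genes with a complete model the median was 83.0%. The scaffold genes have more annotated transcripts, with a median of 10.5 per gene against 5 for those genes. Counted in reads instead of TPM, the medians were 93.6, 88.6 and 59.9%, against 92.9%. The gap between the scales was large where a short model took few reads. The leading model of Shank3 is 719 bases long and carried 65.1 and 59.7% of the gene's TPM from 47.0 and 30.5 reads. Shank3 as a whole had 222.9 and 219.9 reads, so its reads differed far less between the libraries than its 5.57 and 3.80 TPM.

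Several genes at the synapse were led by a transcript without a full coding sequence. Nrxn2 was led by a processed transcript of 576 bases, with 39.9 and 44.5% of its TPM, and Nrxn3 by a retained-intron transcript, with 39.5 and 33.7%. Neither led in reads. The Nrxn2 model had 102.74 and 113.39 reads, against 449.96 and 447.19 for a full-length model of that gene. The Nrxn3 model had 873.74 and 722 reads, against 1511.5 and 1558.8 for a full-length one. Dlg3 was led by a processed transcript of 3316 bases at 68.8 and 55.6%, and Dlg2 by one of 964 bases at 31.7 and 27.2%. The Dlg3 model led in reads as well, with 419.99 and 420.12 reads. The Dlg2 model had 35.99 and 32.47 reads, against 112.47 and 72.24 for a full-length model of that gene. The leading Dlg4 model, at 33.6 and 28.3%, codes for 819 bases against 2172 in the principal PSD-95 transcript. That Dlg4 model led in reads too, with 810.71 and 769 reads. Full-length transcripts of Dlg4 came to 22.5 and 19.2% of its TPM. Bsn was led by an incomplete model at 70.8 and 57.6%, Rims1, Rims2 and Shank2 by shorter coding ones. In contrast, Cplx2 and Syt4 have 1 annotated transcript each, and Cplx1, Sv2a, Syn1 and Nlgn2 had between 97.7 and 100% of their TPM in full-length transcripts.

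Other members were split between transcripts to differing degrees. Vamp2 was carried mostly by 1 transcript of 348 coding bases, at 74.4 and 76.8% of its TPM. Vamp1 was carried by a pair of forms, one of 351 coding bases at 53.5 and 60.6% and one of 354 coding bases at 31.8 and 31.3%. Stx1a had 59.3 and 66.9% in its full-length transcript and 26.2 and 12.7% in one marked for nonsense-mediated decay, which was named after its values were seen. Nlgn2 had 58.7 and 51.3% in one transcript and 41.3 and 46.3% in another of the same coding length. Syn2 had 58.7 and 47.8% in the longer synapsin IIa form and 35.6 and 21.7% in the shorter IIb form. Its retained-intron models held 1.18 and 14.8%, and its other models without coding sequence 4.49 and 15.7%. Incomplete models held 28.2 and 30.2% of Syt11, 34.1 and 40.2% of Nlgn3 and 34.9 and 31.2% of Syt2, the last from 12.6 and 14.9 reads.

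The exon choice of Snap25 was read from the models that carry the exons printed above. The transcript with the downstream exon held 92.3 and 91.2% of the gene's TPM, and the one with the upstream exon 4.66 and 6.36%. These are 2128 and 2854 reads for the first and 48.7 and 90.3 reads for the second. The models also differ in length, with 2116 bases in the first and 1014 in the second, and 1220 bases of the first, its long 3′ end included, are not in the second. Reads from that end were assigned to the longer model whichever exon their molecule held, so the shares do not measure exon choice alone.

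The synapsin 1 models are nearly equal in length, and so were their shares. Synapsin Ia, whose coding sequence of 2118 bases holds the printed segment, had 49.8 and 51.8% of the TPM of Syn1, and synapsin Ib, of 2010 coding bases, had 50.2 and 48.3%. The larger number of Syn1 reads in replicate 2 was assigned to both, with 576 and 937 reads for Ia and 590 and 889 for Ib. By posterior mean, Ia had 51.1 and 50.8%. The models share 3171 bases, and only 38 bases of Ia and 90 of Ib are not in the other. Most reads were therefore divided between them by an estimate, and the shares cannot show whether 1 form changed more than the other.

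Among the neuroligins, transcripts of Nlgn1 with both inserts made up 48.6 and 54.5% of its coding TPM, and no complete model holds only 1 of them. Counted in reads, the share with both inserts was 79.2 and 80.8%, because the model with inserts is 11807 bases long and the one without is 3013. Of the longer model 8837 bases are not in the shorter, most of them outside the inserts. Reads from those bases were not assigned to the shorter model whichever inserts their molecule held, so the shares do not measure insert use alone. For Nlgn3, the model with its splice site A exon made up 9.85 and 5.13% of coding TPM. Most of the coding TPM of Nlgn3 was thus assigned to transcripts without that exon. Its leading model shares all of its 8465 bases with the model that holds the exon, which has only 76 further bases. Most reads of these models were therefore divided by an estimate, and the shares do not measure exon use alone.

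For the neurexins, complete models with at least 50% of the longest coding sequence (alpha-neurexin length) were set against shorter ones (beta-neurexin length). Short forms of Nrxn3 had 11.5 and 13.8 TPM and long forms 9.98 and 10.1 TPM, a log2 ratio of 0.33 ± 0.18. Short forms of Nrxn2 had 7.13 and 5.61 TPM and long forms 3.68 and 3.59 TPM, a log2 ratio of 0.80 ± 0.22. Short forms were above long forms in each library for each gene, beyond 2 SD for Nrxn2 and not for Nrxn3. Of the Nrxn3 coding TPM that spans splice site 4, transcripts with the printed exon held 83.5 and 77.4%. Only 1 coding model lacks that exon, and it shares all of its 2699 bases with a model that has it.

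Homer1 was carried mainly by the long coiled-coil forms that cross-link the scaffold. The 3 long forms with at least 12% of the gene's TPM in each library held 29.0 and 30.8, 24.1 and 22.4, and 14.4 and 12.6% of it. The short form Homer1a, an activity-induced product that lacks the coiled coil and uncouples the scaffold, held 8.26 and 8.35% in the model of 558 coding bases. Other shorter coding models, of 699 and 579 coding bases, held 12.5 and 14.0% and 10.8 and 11.8%. All coding models under full length, Homer1a among them, came to 32.5 and 34.1%. Dlg1 used an exon of 100 bases in 37.0 and 57.6% of its spanning coding TPM, and the alternative exon of 34 bases in the other 63.0 and 42.4%, a spread between the libraries wider than for the segments examined in other genes. Unc13a held an exon of 57 bases in 21.4 and 24.6%.

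The libraries were compared with each other by the reads of each gene, with a two-sided exact binomial test against library sizes scaled by TMM and Benjamini-Hochberg adjustment over all 20125 genes with at least 10 reads in either library. The test covers counting error of these 2 libraries only. Of the 36 genes, 9 were higher and 6 lower in replicate 2 at an adjusted p under 0.05. Of all genes tested, 10.2% were higher and 9.48% lower, 19.7% in all. That set includes genes with far fewer reads than any member. Of the 13394 tested protein-coding genes at 1 TPM or more, 1825 were higher and 1466 lower. The 9 higher genes were all among the 23 vesicle genes. The 5 adhesion genes gave 0 higher and 3 lower, and the 8 scaffold genes 0 higher and 1 lower (at an unadjusted p under 0.05, 12 members were higher and 9 lower). A further minimum of 0.32 in the log2 ratio left 4 higher and 1 lower, beside 2.77% and 3.52% of all genes (6.3% together). With the exact test of edgeR, which adds the spread of all genes between these libraries (a common coefficient of variation of 7.36%), Syn1 was the 1 member still called, higher in replicate 2, beside 0.432% of all genes higher and 0.696% lower (1.13% together).

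**Figure D3:**
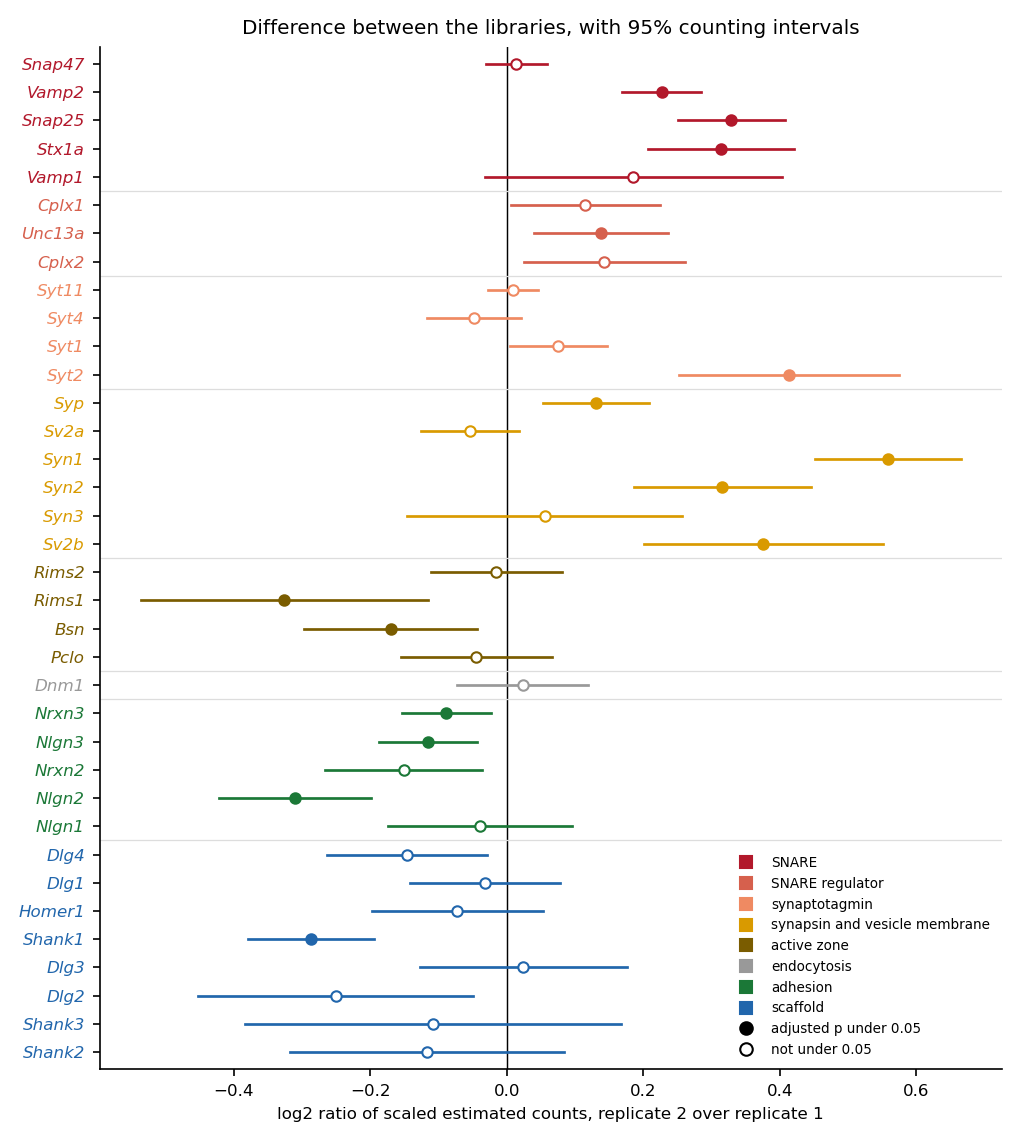
Log2 ratio of scaled estimated counts, replicate 2 over replicate 1, for each of the 36 genes with its 95% exact counting interval, in the same order as in the plot of levels. Filled circles mark an adjusted p under 0.05 by the exact binomial test; they lie right of 0 for 9 vesicle genes and left of 0 for Rims1, Bsn, Nrxn3, Nlgn3, Nlgn2 and Shank1.

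Syn1 had 1166 and 1826 reads in the first and second replicate, which is a log2 ratio of 0.56 (95% interval 0.45 to 0.67) with an adjusted p of 3.74e-23 by the exact binomial test and of 0.0454 by edgeR's exact test. Snap25 had 2341 and 3128 reads (log2 ratio 0.33, adjusted p 5.77e-15 by the exact binomial test). The other 7 called higher had log2 ratios of 0.41 (Syt2), 0.38 (Sv2b), 0.32 (Syn2), 0.31 (Stx1a), 0.23 (Vamp2), 0.14 (Unc13a) and 0.13 (Syp). These encode SNARE proteins, a fast calcium sensor, a priming factor and vesicle proteins. For Syn2 the higher reads were not assigned to full-length coding transcripts. Those had 12.81 TPM in replicate 1 and 12.63 in replicate 2, and 94.4 and 71.1% of the gene's reads.

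The members lower in replicate 2 with TMM scaling were Nlgn2 (log2 ratio -0.31), Shank1 (-0.29), Rims1 (-0.33), Bsn (-0.17), Nlgn3 (-0.12) and Nrxn3 (-0.09). Shank1 had 2029.6 and 1769.6 reads, with an adjusted p of 3.91e-08 by the exact binomial test. Scaled by the ERCC spike-ins instead, 14 members were higher and 3 lower, beside 19.1% and 5.59% of all genes (24.7% together). Bsn, Nlgn3 and Nrxn3 then lost their call (adjusted p 0.204, 0.243 and 0.543 by the exact binomial test), which left Nlgn2, Shank1 and Rims1 lower. With TMM scaling, the median log2 ratio was 0.11 over the vesicle genes, -0.12 over the adhesion genes and -0.11 over the scaffold genes, beside -0.00091 over all genes tested. Of the vesicle genes 17 of 23 had a ratio above 0, and of the adhesion and scaffold genes 0 of 5 and 1 of 8 did. With ERCC scaling these were 21 of 23, 1 of 5 and 2 of 8, and the group medians were 0.17, -0.06 and -0.06.

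Some of the marker lists also differed between the libraries. Of all genes tested, 10.2% were higher and 9.48% lower in replicate 2. All 9 sensory ganglion markers had more scaled reads in replicate 2, 7 of them called, and their summed level went from 228 to 344 TPM. Prph, which encodes a filament of peripheral neurons, had 85.1 and 132 TPM. Of 12 neuron markers 6 were higher and 1 lower, with a summed level of 4260.1 and 4726 TPM, and Tubb3 had a log2 ratio of 0.0027. All 12 skeletal muscle markers were lower in replicate 2, from 420.3 to 306.8 TPM in sum. Of the 8 Schwann cell and neural crest markers 4 were higher and 1 lower, with a summed level of 271.5 and 303.5 TPM, and of the 10 progenitor markers 2 were higher and 3 lower. Of the 4 forebrain markers tested 1 was higher, Emx2, with a log2 ratio of 1.96, and 0 were lower. Of the 8 erythroid markers 1 was higher and 3 lower, and of the 8 macrophage markers 0 were higher and 0 lower. The part of these cell types in the members' difference was not tested.

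Effective length was set beside the difference as well. Over expressed protein-coding genes the median log2 ratio was -0.06 below 1000 bases, -0.0055 from 1000 to 2000 bases, 0.03 from 2000 to 4000 bases, 0.04 from 4000 to 6000 bases and 0.0048 from 6000 bases on. From 1000 to 2000 bases 8.0% of those genes were called higher and 11.05% lower, and the 3 members of that length had a median of 0.23. The 20 members from 2000 to 4000 bases had a median of -0.0034, the 7 from 4000 to 6000 bases 0.08 and the 6 from 6000 bases on -0.08. The median effective length was 3350 bases for the vesicle group, 5160 bases for the adhesion genes and 3376 bases for the scaffold genes. Within the vesicle group it was 1824 bases for the SNARE genes and 6990 bases for the active zone genes. The log2 ratios of called members ran from -0.33 to -0.09 and from 0.13 to 0.56, and the part of length was not tested.

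Reads of overlapping genes are a further limit, since no strand-specific step is named. Exons of 14 members overlap an exon of a gene on the opposite strand. Syn3 shares 1733 bases with Timp3, which lies in its intron on the other strand and had 31.6 and 37.8 TPM. Unc13a shares 495 bases with Colgalt1, at 47.7 and 53.0 TPM. Syn1 and Araf, at 134 and 143 TPM, share 9 bases. Pclo shares 429 bases with Gm26918, at 4.49 and 4.8 TPM, and Nrxn2 shares 207 bases with Gm14964, at 14.2 and 16.7 TPM. Nlgn1 shares 1229 bases with A830092H15Rik, at 1 TPM in each library, and Syp shares 875 bases with Gm14703, at 1.76 and 2.12 TPM. On the same strand, Nlgn3 shares 3823 bases with Gm21986, at 0.84 and 0.72 TPM. The levels of overlapping members, Syn3, Unc13a, Pclo, Nrxn2, Nlgn1, Syp and Nlgn3 among them, are uncertain to that extent.

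The other genes of the same pathways were taken from 7 lists of 132 genes, of which 131 were measured and 124 reached 1 TPM in both libraries, 87 of them 10 TPM. Among 15 other SNARE and fusion genes all were at 1 TPM or more, among them Napa (158 TPM, mean of the libraries) and Nsf (68.8), the machinery that recycles SNAREs, with Stx3 lowest at 3.80. Of 15 other synaptotagmin and DOC2 genes 11 were expressed. Syt13 led at 31.6 TPM, then Syt5 at 22.2 and Syt16 at 14.5, and Syt8 was lowest at 0.23. All stayed under Syt11 and Syt4, and Syt13 passed Syt1 in replicate 2 alone, at 36.7 against 35.5 TPM. Among 16 other vesicle genes, 14 were expressed, led by Rab3a (150.4), Rab3c (80.2) and the proton pump subunit gene Atp6v0a1 (60.02 TPM), and Cplx4 was listed at 0.

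**Figure D4:**
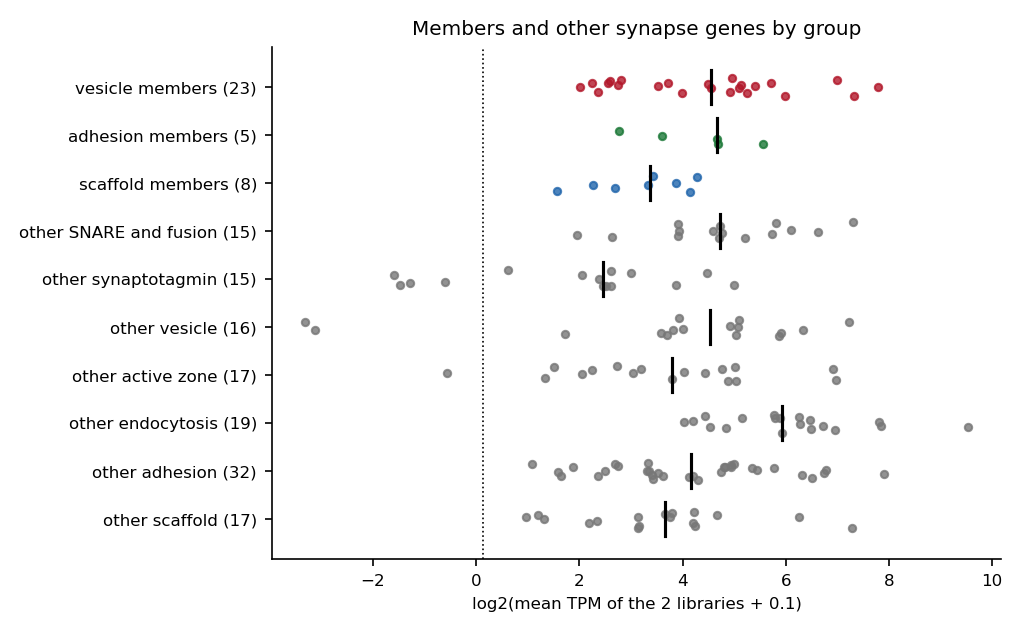
Level of every gene in the 3 groups of members and the 7 lists of other synapse genes, as log2 of the mean TPM of the 2 libraries plus 0.1, with a black bar at each median and a dotted line at 1 TPM. The endocytosis list has the highest median (61.2 TPM), and the other synaptotagmins reach lowest, apart from 2 vesicle genes at the left edge.

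Of 17 other active zone genes 16 were expressed, led by Lin7c (125 TPM), Apba2 (120.1 TPM) and Lin7a (32.8), while Unc13c was lowest at 0.575 (SD 0.0636, n = 2). All 19 other endocytosis genes exceeded 10 TPM, with the clathrin adaptor gene Ap2m1 at 742, Ap2s1 at 229 and the clathrin light chain gene Clta at 224, and Amph lowest at 16.3. All 32 other adhesion genes were expressed, led by the receptor phosphatase gene Ptprs (239), Cadm1 (110.3 TPM) and Clstn1 (106), with Slitrk6 lowest at 2.02. All 17 other scaffold genes were expressed, led by Dlgap4 (155), Homer3 (76.2 TPM) and Tanc2 (25.3 TPM), with Shisa6 lowest at 1.87. Homer3 was thus higher than Homer1, and Dlgap4 higher than any DLG member.

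The same binomial test called genes of these lists in both directions. Of the 15 other SNARE and fusion genes tested, 4 were higher and 0 lower in replicate 2, and of 14 synaptotagmin and DOC2 genes 2 and 0. The 14 vesicle genes tested gave 3 and 2, and the 17 active zone genes 5 and 3. The 19 endocytosis genes gave 3 and 2, the 32 adhesion genes 4 and 6, and the 17 scaffold genes 1 and 1. Beside these, 10.2% of all genes tested were higher and 9.48% lower, and no list was tested against that share. Syt13 had the lowest adjusted p of the synaptotagmins, with a log2 ratio of 0.43 (adjusted p 1.21e-22 by the exact binomial test).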

How the data were processed

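Per the labels, polyadenylated RNA of 2 embryo pools was primed with oligo-dT from 10 ng, tagmented and given ERCC spike-ins. Per the deposited notes, reads were quantified on mm10 against GENCODE M21 and again against M4, with aligner, quantifier and versions not given in the sources used here. The deposited estimated count of a gene divides shared reads by an estimate and need not be whole. The deposited TPM divides that count by effective length and scales it to 1 sum per library. The percent of a gene's TPM per transcript (IsoPct) is given per the file headers, whose column names are those RSEM writes.

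Members and lists were chosen with earlier results of these data known. Levels are the deposited TPM in each library, with mean ± SD where given (n = 2). All 36 members, the 3 highest and the lowest gene of each other list, the genes of the fixed pairs, and leading transcripts or those with at least 20% of a gene's TPM were named, with further ones chosen after their values were seen. Counts were rounded for the exact binomial test (scipy 1.17.1), with TMM from edgeR 4.0.16 in R 4.3.3. On simulated counts of 19981 genes, its recovery was 54.6% at 1.25-fold, 66.5% at 1.5-fold and 79.2% at 2-fold changes. The intervals and the binomial test cover counting error only, since there is 1 library on each side. PCR copies without molecular identifiers count as separate reads, which that test does not allow for. Transcript classes, segments and overlaps came from GENCODE M21 on GRCm38, and promoters from RefSeq on GRCm38.p6. Alternatives included M4, other scalings, thresholds and pseudocounts, and DESeq2 1.42.0 size factors. Of the gene IDs, 86 have no entry in that annotation.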

Additional observations from a re-analysis of the deposited data

How the results depend on the processing

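Each pool was measured once, so a value without 1 library is the value of the other. Between the libraries taken alone, the log2 ratio of group medians ran from -0.13 to 0.13 for vesicle over adhesion, 1.21 to 1.37 for vesicle over scaffold and 1.245 to 1.34 for adhesion over scaffold. All 36 members stayed at 1 TPM or more with M4, rescaled and posterior mean TPM, and 31 reached 5 TPM. The M4 tables gave -0.19, 1.02 and 1.21 for the 3 ratios. Geometric means with 0.1 TPM added gave 0.18 for vesicle over adhesion and 1.06 for adhesion over scaffold, and with 1 TPM added 0.20 and 0.98. Full-length coding transcripts, added after seeing the data, gave 1.12, 2.64 and 1.52. The count of pairs beyond the library spread was 28 or 29 of 30 with the other TPM scales and pseudocounts and 27 of the 28 pairs that have full-length values, and that of members led by a full-length transcript between 24 and 30 of 36; of the single pairs and members, 106 and 58 values moved by less than 1 SD, 41 and 86 by more, and 1 pair changed sign (values without 1 library, and pairs under rescaling, have a shift fixed by construction and are not counted). The member values under rescaling are counted, though rescaling multiplies all levels of a library by 1 factor. They make up 33 of the 86 that moved by more and 3 of the 58 that moved by less. Of the other synapse genes 102 to 125 were expressed. With full-length transcripts Dlg4 was below Nlgn1 (log2 ratio -0.44), since 20.8% of the Dlg4 TPM is in full-length models.

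Between the libraries, 9 members were higher and 6 lower in replicate 2. ERCC scaling, which moved the median of all genes by 0.0560 on the log2 scale, gave 14 and 3, with Bsn, Nlgn3 and Nrxn3 no longer called (77.3% of all calls higher, against 51.9% with TMM), a minimum log2 ratio of 0.32 gave 4 and 1, and the exact test of edgeR with its common dispersion gave 1 and 0 (4 and 0 at an unadjusted p under 0.05). The M4 tables and DESeq2 size factors each gave 9 and 6, and no filter on low counts gave 8 and 4. Of 75 single values of the 15 called members under these settings, 54 stayed called and 21 did not, all in the same direction. No value without 1 library exists for this comparison.

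The median full-length share of TPM was 83.1% for vesicle and 22.2% for scaffold genes with posterior means, and 93.6, 88.6 and 59.9% by reads. Set against the longest model it was 75.8% for vesicle genes; from 90% of the coding sequence it was 55.9% for adhesion genes, and from 60% it was 39.8% for scaffold genes. These alternatives were added after seeing the data, other than the posterior means. The cause of these shifts was not tested beyond the construction of each scale. No paired analysis was possible because the series has 1 group.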

Other observations

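The promoters of the members were searched for TTCAGCACC, the left part of the element bound by REST, a repressor of neuronal genes outside neurons. The search used both strands of 300 bases around each RefSeq start, from 250 bases before to 50 after it, and was chosen after the data were seen. Of the 36 genes, 27 have promoters in that table, 45 in all, and 3 of those (6.67%) hold the motif, against 0.371% of 32851 promoters of all genes. They belong to Syn1, Unc13a and Nlgn1. In Syn1 (GRCm38.p6, chrX:20921120-20921160, minus strand) the match starts at base 19 of the window, and capitals mark it.
Syn1 promoter: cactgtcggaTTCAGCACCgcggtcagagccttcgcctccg

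In Nlgn1 the match starts at base 98 of the window and in Unc13a at base 273, after the start site and on the other strand. Syn1 and Unc13a were higher in replicate 2 in reads, and Nlgn1 was not called, with a log2 ratio of -0.04. A match is a description of these letters and says nothing about binding in this tissue.

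Read and TPM ratios of a member could differ in sign between the libraries. Dlg4 had 18.5 and 20.1 TPM but 1215 and 1168 reads, a log2 ratio of 0.12 in TPM and of -0.15 in scaled reads. Rims1 had a log2 ratio of -0.53 in TPM and of -0.33 in scaled reads.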
